A study of Sus scrofa with 8 samples.

Results

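The cytosolic ribosomal protein genes studied here are the protein-coding genes of the deposited pig table whose name starts with RPL or RPS followed by a number, or with RPLP or RPSA, without the RPS6K kinases. This rule found 57 of 18898 genes, of which 31 belong to the large ribosomal subunit and 26 to the small subunit, and it used no measured value. The RNA came from cells of the condylar cartilage, the tissue that covers the jaw's side of the temporomandibular joint. Both groups were wild-type pigs with 4 RNA-seq libraries each: the osteoarthritis group, in which the articular disc of this joint had been perforated surgically with a 5.0 mm punch, and the control group. The labels give no age and no time after surgery, do not say how control joints were handled, and call the samples biological replicates without stating that each came from its own animal, so the p-values below reflect how much these libraries vary, which may be partly technical. Total RNA was depleted of ribosomal RNA before strand-specific libraries were made, and the estimated counts added up to 11354200 to 25412939 per library.

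The cytosolic ribosome translates all messages of the nuclear genome, with a small subunit that reads the message and a large subunit that joins amino acids. Its proteins are needed in matched numbers, and vertebrate ribosomal protein messages start with a 5′ terminal oligopyrimidine (TOP) tract through which the mTORC1 kinase and LARP1 control their translation. Chondrocytes are secretory cells that depend on this machinery to make matrix collagens and proteoglycans, and the ribosomal protein genes are among the most strongly transcribed of the genome.

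The libraries of the groups differed in what else they held. Protein-coding genes took 89.2% ± 1.28 of the counts in osteoarthritis libraries and 67.0% ± 11.6 in control libraries (SD, n = 4 each). Mitochondrial ribosomal RNA took 0.0319% to 0.135% in osteoarthritis libraries and 2.85% to 12.3% in control libraries, with the highest value in control 2. CPM are here counts scaled to library sizes that were adjusted by trimmed mean of M values (TMM). On this scale the summed level of 7 epithelial markers was 3.85 to 7.02 CPM in osteoarthritis and 92.7 to 368 CPM in control libraries. All 7 of these markers were below 0 in log2 fold change, as were 49.6% of all genes tested. Of the 7, 4 were called lower at an adjusted p under 0.05 in edgeR, where 0.393% of all genes were. TP63 had 0, 0, 0 and 1 counts in osteoarthritis libraries 1 to 4. The 10 chondrocyte markers, of which 0 passed the test and all 10 were above 0 in log2 fold change, summed to 139452, 120678, 20317 and 43894 CPM in osteoarthritis libraries 1 to 4 and to 7434 to 16793 CPM in control libraries. The groups also did not overlap in the summed smooth muscle and pericyte markers, at 70.8 to 97.6 CPM in osteoarthritis and 126 to 282 CPM in control libraries (0 of 4 tested called). Nor did they overlap on this scale in the summed lymphocyte markers, at 99.7 to 129 CPM in osteoarthritis and 187 to 209.9 CPM in control libraries (0 of 5 tested called). The direction of the lymphocyte markers depended on the scaling. Their median log2 fold change, osteoarthritis over control, was -0.21 under TMM and 0.38 with library size alone. For the smooth muscle and pericyte markers it was -1.44 and -0.85. In bulk RNA, fewer cells of a type and less RNA per cell cannot be told apart. The part of these differences in the results on the ribosomal protein genes was not tested.

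Whether the ribosomal protein genes as a class stood higher or lower in osteoarthritis depended on what they were measured against. On the scale of the main test, CPM with library sizes adjusted by trimmed mean of M values (TMM), the summed level of all 57 genes was 8824, 8726, 5639 and 7215 CPM in osteoarthritis libraries 1 to 4. It was 9499, 10772, 9691 and 8300 CPM in control libraries 1 to 4. Osteoarthritis 3 was the lowest library of all, osteoarthritis 1 and 2 exceeded control 4, and the groups therefore overlapped. The mean was 7601 ± 1501 CPM in osteoarthritis and 9565 ± 1013 CPM in control libraries (SD, n = 4 each), an osteoarthritis to control ratio of 0.795, while as a share of all counts the ratio turned to 1.23.

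As that share, the genes held 0.973%, 0.908%, 0.871% and 1.06% of all estimated counts in osteoarthritis libraries 1 to 4, against 0.941%, 0.456%, 0.846% and 0.859% in control libraries 1 to 4. Control 2, the library richest in mitochondrial ribosomal RNA, was far below the other 7, and without it the ratio was 1.08. Within protein-coding counts alone the genes held 1.07% ± 0.0925 in osteoarthritis and 1.14% ± 0.165 in control libraries, a ratio of 0.938. In TPM, the deposited transcript-level unit that divides each gene's count by its length before rescaling, their sum was 24426 ± 1767 in osteoarthritis and 9004 ± 3875 in control libraries, a ratio of 2.71 with no overlap of the groups. Of the 57 genes, 44 were higher in every osteoarthritis library than in any control library on the TPM scale, and so were 70.7% of all genes tested. No p-value is given for these sums, which are scores over a chosen list.

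**Figure D1:**
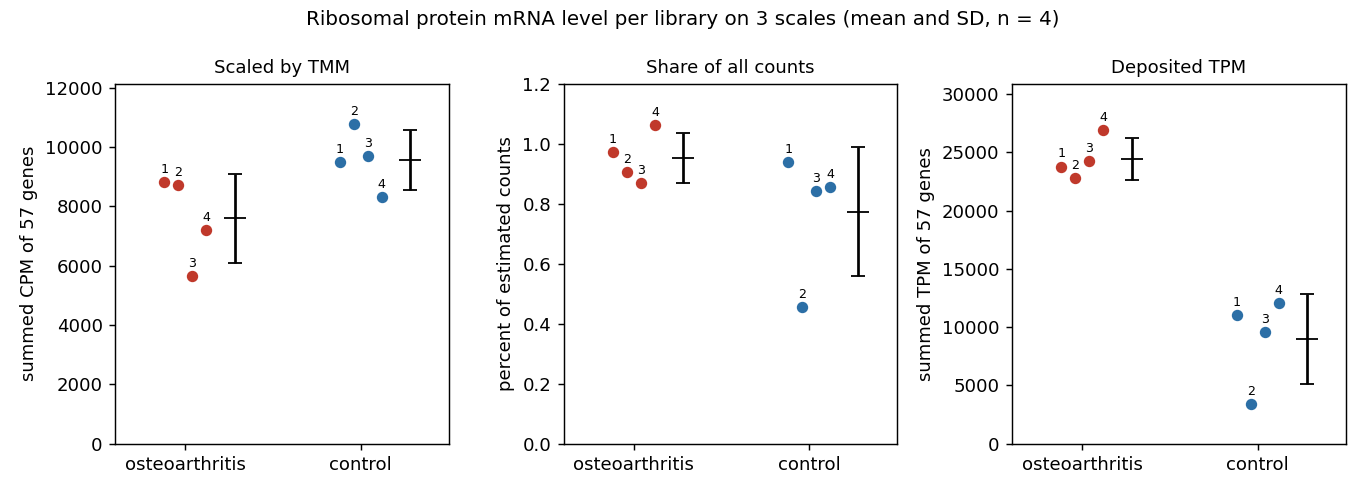
Summed level of the 57 ribosomal protein genes in each library, with osteoarthritis libraries left of control libraries, on the scales named on the axes; points are libraries and bars the mean and SD (n = 4 each). The osteoarthritis to control ratio is 0.795 in TMM-scaled CPM, 1.23 as a share of all counts and 2.71 in TPM, so that the direction flips with the scale.

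Gene by gene on the TMM scale, 6 of the 56 genes that could be tested fell in osteoarthritis and none rose, at an adjusted p under 0.05 in edgeR's quasi-likelihood test with Benjamini-Hochberg adjustment over all 16020 genes tested. RPL3L, a striated muscle form of RPL3 in mammals, was too scarce for the test. Of all genes tested, 0.393% fell and 0.225% rose. At an unadjusted p under 0.05, 28 ribosomal protein genes were lower and 0 higher, against 7.65% and 7.52% of all genes. In 27 genes every osteoarthritis library was below every control library, and in none were they all above, against 5.52% and 5.69% of all genes. The median log2 fold change was -0.50 for the ribosomal protein genes and 0.0049 for all genes tested. Of the ribosomal protein genes, 48 of 56 were below 0, against 49.6% of all genes. With scaling by library size alone their median was 0.16 beside 0.65 for all genes. Relative to the median of all genes, the ribosomal protein median was -0.51 under TMM and -0.49 under library size alone. With library size alone 0 of the 6 calls were kept and 19 of the 56 genes were below 0, against 12.1% of all genes, of which 0.175% fell and 1.16% rose.

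Both subunits shared this pattern on the TMM scale, which turned with the scaling. The 30 tested large subunit genes had a median log2 fold change of -0.54 and a range of -1.73 to 0.31, with 1 called lower, 26 below 0 and 15 without overlap of the groups. The 26 small subunit genes had a median of -0.45 and a range of -1.54 to 0.16, with 5 called lower, 22 below 0 and 12 without overlap. Of all genes tested, 0.393% were called lower, 49.6% were below 0 and 5.52% were lower without overlap. Under library size alone both medians changed sign, to 0.16 for the large and 0.20 for the small subunit, beside the 0.65 of all genes.

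**Figure D2:**
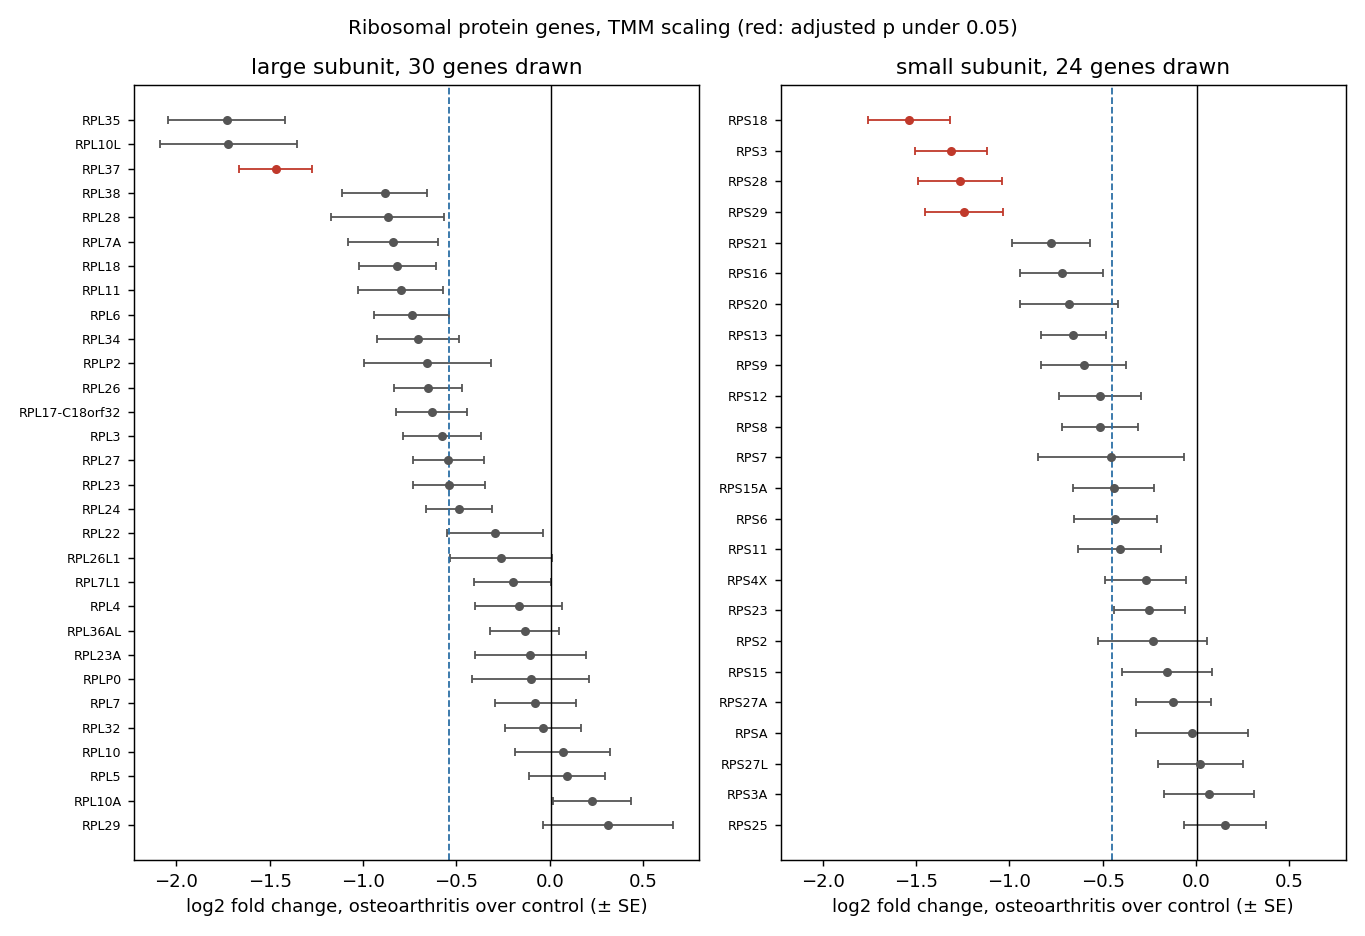
Log2 fold change, osteoarthritis over control on the TMM scale, of 54 of the 56 tested ribosomal protein genes with its standard error, large and small subunit apart. The dashed lines mark the medians of all tested genes of a subunit and red points an adjusted p under 0.05. Of the 54 genes drawn 47 lie below 0, against 49.6% of all genes tested. The medians are -0.54 for the large and -0.45 for the small subunit, both of which turn positive (0.16 and 0.20) when only library size is scaled.

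In the large subunit the gene that fell was RPL37, whose zinc-binding protein sits deep in the ribosomal RNA. RPL37 (chr16:25800883-25803526 on Sscrofa11.1, by RefSeq) had 42.8, 28.5, 41.2 and 41.6 CPM in osteoarthritis libraries 1 to 4, against 100.4, 123, 105 and 98.1 CPM in control libraries 1 to 4. The groups were far apart, and osteoarthritis 2 was the lowest. Its log2 fold change was -1.47 ± 0.19 (SE; edgeR adjusted p = 0.018).

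RPL35, which lies near the exit of the tunnel for the growing chain, showed the lowest fold change of the class. RPL35 (chr1:265637266-265642278) had 57.5, 55.7, 22.6 and 32.2 CPM in osteoarthritis libraries, against 121, 159, 129 and 148 CPM in control libraries. All osteoarthritis libraries were below all control libraries, and osteoarthritis 3 and 4 were lower than osteoarthritis 1 and 2. The log2 fold change was -1.73 ± 0.31 with an edgeR adjusted p of 0.0502, just outside the threshold. RPL18, a further large subunit protein, differed by -0.82 ± 0.21 on the log2 scale without passing (edgeR adjusted p = 0.121).

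Among the genes that fell in the small subunit, those described here were RPS18, RPS3, RPS28 and RPS29. RPS18 (chr7:29638856-29642912), in the head of the subunit, had 63.6, 51.4, 39.5 and 49.8 CPM in osteoarthritis libraries and 149, 175, 156 and 115 CPM in control libraries. The groups were well separated, and the lowest osteoarthritis library was osteoarthritis 3. The log2 fold change was -1.54 ± 0.22 (edgeR adjusted p = 0.025).

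RPS3 (chr9:9612939-9630404), which lines the channel where the message enters and also has a role in DNA repair, had 68.7, 57.5, 46.3 and 51.6 CPM in osteoarthritis libraries and 145, 150.1, 144 and 117 CPM in control libraries. The lowest control library, control 4, was still well above the highest osteoarthritis library. Its log2 fold change was -1.31 ± 0.19 (edgeR adjusted p = 0.029).

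RPS28 and RPS29 are very small proteins of the head of the subunit. RPS28 (chr2:70953706-70954862) had 10.3, 7.87, 6.89 and 5.80 CPM in osteoarthritis libraries and 15.1, 21.1, 18.8 and 19.0 CPM in control libraries. RPS29 (chr1:179454923-179456847) had 27.1, 16.8, 19.1 and 21.1 CPM in osteoarthritis libraries and 42.1, 61.3, 45.8 and 49.8 CPM in control libraries. In both, osteoarthritis 1 came closest to the control libraries without reaching them. The log2 fold changes were -1.26 ± 0.22 for RPS28 and -1.24 ± 0.21 for RPS29 (edgeR adjusted p = 0.048 and 0.041).

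No fit with a library left out kept all of these 6 calls. Leaving out osteoarthritis 1, osteoarthritis 4, control 1 or control 3 left none of them, leaving out osteoarthritis 2 left RPL37, and leaving out control 2 left 2 genes, RPL37 among them. Without osteoarthritis 3 or without control 4, 4 of them passed, among them RPL37, RPS18 and RPS3. With single libraries left out the fold changes moved little: RPL37 stayed between -1.52 and -1.35, RPS3 between -1.42 and -1.24 and RPS18 between -1.66 and -1.45 on the log2 scale. With library size alone the fold changes were smaller but still below 0. They were -0.77 for RPL37, -0.68 for RPS3, -0.88 for RPS18, -0.63 for RPS28 and -0.56 for RPS29. Summing controls 1 and 3, or using the replicate number as a block, also left 0 of the 6 calls. Controls 1 and 3 differed by a chi-square of 31.6 per degree of freedom, and osteoarthritis 1 and 2 by 30.2. Other pairs within a group differed by 114 to 453. The labels do not say whether the close pairs share an animal, and osteoarthritis 1 and 2 were not summed. In some other fits more members were lower and 0 higher. These were 21 with DESeq2, where 2.87% of all genes were lower and 2.4% higher, and 7 with limma-voom (0.499% and 0.243%). They were 26 with limma-voom and sample weights (8.45% and 12.3%) and 11 with 1 surrogate variable in edgeR (2.1% and 3.63%). All 6 were among the calls of each of these fits. On the TPM scale the groups overlapped in all 6 genes, for example in RPL37, with 223, 144, 333 and 329 TPM in osteoarthritis libraries and 236, 61.6, 179 and 259 TPM in control libraries.

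**Figure D3:**
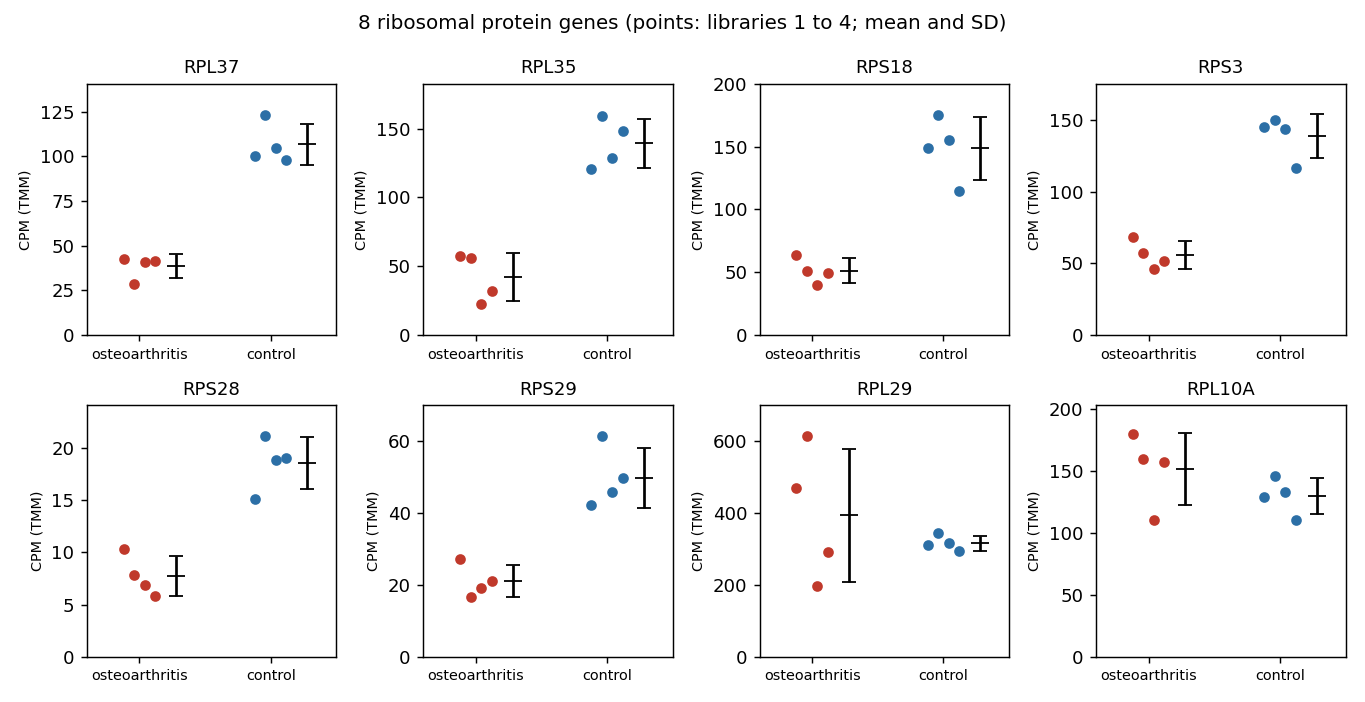
TMM-scaled CPM of RPL37, RPL35, RPS18, RPS3, RPS28, RPS29, RPL29 and RPL10A in osteoarthritis (left) and control (right) libraries; points are libraries 1 to 4, bars the mean and SD (n = 4 each). In the first 6 genes the groups do not overlap, for example at 39.5 to 63.6 CPM in osteoarthritis and 115 to 175 CPM in control for RPS18, while RPL29 spreads over 198 to 615 CPM in osteoarthritis and 294 to 344 CPM in control.

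The members that stood highest relative to the control group did not pass the test, and the osteoarthritis libraries disagreed among themselves. RPL29, a basic protein that mouse growth and bone quality depend on, had 469, 615, 198 and 293 CPM in osteoarthritis libraries and 311, 344, 317 and 294 CPM in control libraries. Osteoarthritis 1 and 2 were above and osteoarthritis 3 and 4 below all controls, and the log2 fold change was 0.31 ± 0.35 (edgeR adjusted p = 0.713). A wide spread over the osteoarthritis libraries was also seen in genes below 0. RPS7, which binds MDM2 when ribosome assembly is disturbed, had 297, 326, 84.1 and 159 CPM in osteoarthritis libraries and 282, 319, 288 and 299.8 CPM in control libraries. Osteoarthritis 3 was the lowest library and osteoarthritis 2 the highest, and the log2 fold change was -0.46 ± 0.39 (edgeR adjusted p = 0.622). The summed chondrocyte markers were also higher in osteoarthritis 1 and 2 than in osteoarthritis 3 and 4, and their part in this spread was not tested.

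Besides RPL29, genes with a fold change above 0 on the TMM scale included RPL10A (0.23 ± 0.21), RPS25 (0.16 ± 0.22), RPL5 (0.09 ± 0.21), RPL10 (0.07 ± 0.26), RPS3A (0.07 ± 0.24) and RPS27L (0.02 ± 0.23), none of which passed. RPL5 forms a particle with 5S ribosomal RNA that restrains MDM2, and RPS25 is needed for translation from some viral internal entry sites. RPL10 joins the large subunit late in its maturation.

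Per length, the most abundant transcripts among the 57 genes, by the mean over all 8 libraries, were RPL23A (1401 TPM), RPL10 (982 TPM) and RPL29 (950.01 TPM) in the large subunit, and RPS2 (769 TPM), RPSA (734 TPM) and RPS7 (687 TPM) in the small subunit. In control libraries alone the order differed, with RPLP2 (532 TPM) above RPL10 (435 TPM) and RPL29 (385 TPM), and RPS7 (418 TPM) above RPS2 (396 TPM) and RPSA (297 TPM). None of these abundant genes passed the test. RPL23A, a docking site for the signal recognition particle at the tunnel exit, differed by -0.10 ± 0.30 on the log2 scale under TMM and by 0.53 under library size alone. RPS2 differed by -0.23 ± 0.29 and RPSA, which is also known as the laminin receptor precursor, by -0.02 ± 0.30 under TMM. With library size alone they turned to 0.36 and 0.62.

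Across the 56 tested genes the fold change was less negative for genes with more counts, with a Spearman correlation of 0.49 and a Pearson correlation of 0.39 against mean log2 CPM. The points share the 8 libraries and their scaling. The effective length, for which the rank correlation was 0.37, ranged from 205 bases to 6837 bases and exceeded 2000 bases in 8 genes.

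The acidic stalk, built of RPLP0 with RPLP1 and RPLP2, recruits the factors that drive elongation. RPLP1 carries no name in the file and is therefore no member. In RPLP1 the groups overlapped in CPM, and the log2 fold change was -0.17 ± 0.31 (edgeR adjusted p = 0.839). RPLP2 had 196, 212, 79.6 and 96.8 CPM in osteoarthritis libraries and 206, 276, 223 and 217 CPM in control libraries. Only osteoarthritis 2 reached into the control range, and the log2 fold change of -0.66 ± 0.34 did not pass (edgeR adjusted p = 0.403). RPLP0, the scaffold of the stalk and a common reference gene in quantitative PCR, had 492, 478, 219 and 292 CPM in osteoarthritis libraries and 366, 493, 378 and 352 CPM in control libraries. Osteoarthritis 1 and 2 lay within the control range and osteoarthritis 3 and 4 below it, and the log2 fold change was -0.10 ± 0.31 under TMM and 0.51 under library size alone.

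Several members are paralogs or copies whose reads the estimation of counts may divide between near-identical sequences, so that their values are uncertain. RPL10L, which in mice replaces RPL10 during male meiosis, had 1.05, 1.27, 0.769 and 0.828 CPM in osteoarthritis libraries and 4.05, 3.94, 3.17 and 1.72 CPM in control libraries. Those groups did not overlap, but at -1.72 ± 0.37 the log2 fold change missed the threshold (edgeR adjusted p = 0.081). RPL26L1 (-0.26 ± 0.27), RPL36AL (-0.14 ± 0.18), RPL7L1 (-0.20 ± 0.21) and RPS4X (-0.27 ± 0.22) did not pass either, and each was above 0 under library size alone. RPS27L, a p53 target, was the scarcest small subunit gene among the 57, at a mean of 2.95 TPM over all 8 libraries. RPL3L had 3, 7, 22 and 13 counts in osteoarthritis libraries and 3, 0, 0 and 30 counts in control libraries.

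The make-up of the class, meaning each gene's share of the summed ribosomal protein counts, does not depend on how libraries are scaled to each other. RPS18 took 0.721%, 0.589%, 0.701% and 0.690% of these counts in osteoarthritis libraries and 1.56%, 1.63%, 1.60% and 1.38% in control libraries. This share was tight within each group and clearly apart between the groups. RPL35 took 0.651%, 0.638%, 0.402% and 0.446% in osteoarthritis libraries and 1.27%, 1.48%, 1.33% and 1.79% in control libraries. In the opposite direction, RPL10A, which is known to mark ribosome subsets in mouse stem cells, took 2.04%, 1.83%, 1.96% and 2.17% in osteoarthritis libraries and 1.36%, 1.36%, 1.38% and 1.33% in control libraries. RPL10 took 6.24%, 6.69%, 5.76% and 6.12% in osteoarthritis libraries and 4.66%, 4.50%, 4.58% and 5.31% in control libraries. RPL10 and RPL10A were the only members whose share was higher in every osteoarthritis library than in any control library.

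Fitted on counts scaled to the sum of the ribosomal protein genes, a setting added after seeing the data, 3 members fell and 0 rose, where 0.237% of all genes fell and 0.712% rose. They included RPL35 (-1.46, edgeR adjusted p = 0.0295) and RPS18 (-1.19, edgeR adjusted p = 0.0265). RPS3 was at -0.97 with an edgeR adjusted p of 0.0503, and RPL37 at -1.08 with 0.0898. In shares of the class, 10 large and 8 small subunit genes were lower without overlap and 2 and 0 were higher, against 2.02% lower and 12.5% higher among all genes set against the same sum. On this scale the median log2 fold change was -0.13 for the members, whose shares always add up to the same whole, and 0.37 for all genes. Both comparisons with all genes are therefore shifted by the choice of the sum, and no conclusion is drawn from them.

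**Figure D4:**
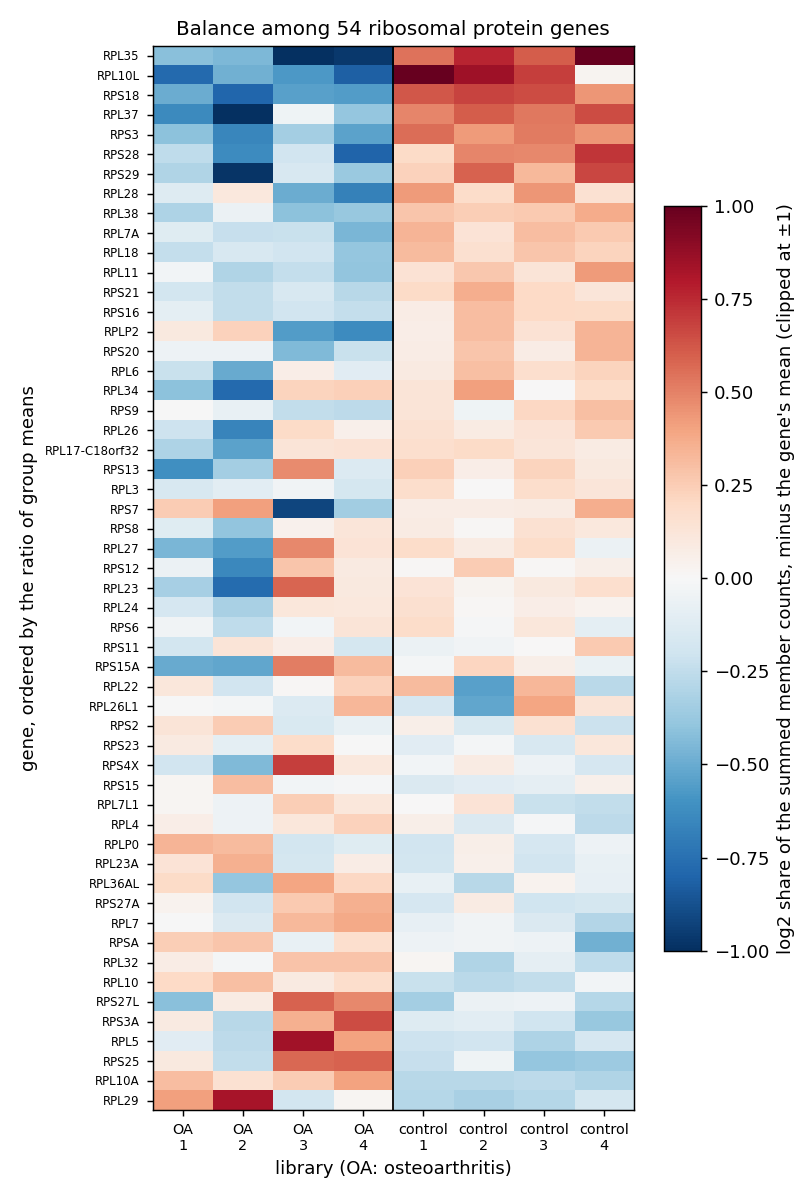
Heat map of the share of the summed ribosomal protein counts held by each of 54 genes (rows, ordered by the ratio of group means) in osteoarthritis and control libraries (columns); colour is the log2 share minus the gene's mean, clipped at the ends of the scale. RPS18 and RPL35 hold less of the class in osteoarthritis (0.589% to 0.721% against 1.38% to 1.63% for RPS18), and RPL10A holds more (1.83% to 2.17% against 1.33% to 1.38%).

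The balance of the subunits was close in both groups in summed TPM but not by the median gene. The summed TPM of large over small subunit genes was 1.19 ± 0.0442 in osteoarthritis and 1.17 ± 0.0286 in control libraries (SD, n = 4 each), a ratio of 1.02 that was smaller than the spread. In estimated counts the same ratio was 1.21 ± 0.0193 in osteoarthritis and 1.16 ± 0.0274 in control libraries. With the median gene of each subunit in place of the sum of TPM, it was 0.753 ± 0.0763 in osteoarthritis and 0.907 ± 0.0495 in control libraries. By this measure the ratio was lower instead of higher in osteoarthritis. The groups did not overlap, at 0.680 to 0.848 in osteoarthritis and 0.857 to 0.974 in control libraries.

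The make-up was also more uniform among control libraries. The coefficient of variation of a gene's share of the class had a median of 15.1% and a range of 3.94% to 39.8% over the osteoarthritis libraries, and a median of 8.31% and a range of 1.29% to 29.1% over the control libraries (56 genes). It was not computed for all genes. Over all genes the chi-square per degree of freedom between libraries of a group reached 453 in control and 262 in osteoarthritis. The greater uniformity of the control libraries is thus shown for the members only. The correlation of log2(TPM + 1) across the 57 genes was 0.955 to 0.991 between osteoarthritis libraries, 0.991 to 0.998 between control libraries and 0.946 to 0.972 between libraries of different groups. These correlations are across genes, which are not independent replicates. RPL5 was an example of the spread, with 2.49%, 2.24%, 4.79% and 3.54% of the class in osteoarthritis libraries and 2.32%, 2.35%, 2.17% and 2.39% in control libraries.

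In 5 members the effective length, which follows the transcript forms that the reads were assigned to, differed between groups by more than 0.2 on the log2 scale, and in each of them it was shorter in osteoarthritis. The share of all genes with such a difference was not computed, so it is open whether this is particular to the members. RPS27A, which is made as a fusion with ubiquitin, had a mean effective length of 336 bases in osteoarthritis and 533 bases in control libraries. For RPL24 it was 467 bases in osteoarthritis and 577 bases in control libraries. A shorter length raises TPM for the same count. The correlation of the length ratio with the count fold change across the 56 genes was 0.0021 by rank and -0.10 by Pearson. The count fold change does not contain the length, so this correlation cannot show how length affected TPM. These 2 genes were picked after their lengths were seen.

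A further 20 ribosomal protein genes carry no name in the file and were identified through their gene identifiers in the reference tables. On the TMM scale they had a median log2 fold change of -0.49, 11 (55.0%) were lower and 1 higher at an unadjusted p under 0.05, against 7.65% and 7.52% of all genes, and 1 fell, where 0.393% of all genes did, while with library size alone their median was 0.19. The genes named from this set were chosen after their values were seen. RPL36A, near-identical to RPL36AL in protein, had 6.46, 4.82, 5.82 and 5.66 CPM in osteoarthritis libraries and 22.0, 23.0, 23.1 and 15.9 CPM in control libraries. Its groups were further apart than those of any named member in log2 fold change, at -1.88 ± 0.20 (edgeR adjusted p = 0.0063), whereas RPL36AL stood at -0.14. RPS27 went the other way without passing, with 263, 284, 229.8 and 289.8 CPM in osteoarthritis libraries and 147, 186, 149 and 153 CPM in control libraries (0.75 ± 0.20, edgeR adjusted p = 0.128).

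In the 5 lists of genes that work with the cytosolic ribosome, edgeR with TMM called 0 genes. DESeq2 called 14, limma-voom with sample weights 37 and edgeR with 1 surrogate variable 9. Over the whole table, DESeq2 called 2.87% of genes lower and 2.4% higher. The shares were 8.45% and 12.3% with sample weights, and 2.1% and 3.63% with 1 surrogate variable. Of all genes tested, 7.65% were lower and 7.52% higher at an unadjusted p under 0.05 in edgeR with TMM, and 49.6% were below 0, as the measure for the counts that follow. Of 25 translation factors and other TOP messages, 0 passed, 21 (84.0%) were below 0 and 6 were lower at an unadjusted p under 0.05, with a median of -0.32. HNRNPA1, a splicing factor with a TOP message, was at -1.02 ± 0.20 (edgeR adjusted p = 0.068), and NPM1, the nucleolar chaperone of ribosome assembly, at -0.93 ± 0.25 (edgeR adjusted p = 0.146). RACK1, a scaffold protein on the small subunit that the name rule leaves out, had 373, 384, 265 and 351 CPM in osteoarthritis libraries and 357, 376, 364 and 303 CPM in control libraries. Its groups lay on top of each other, at -0.03 ± 0.22.

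Of 76 tested ribosome biogenesis genes 0 passed, 18 (23.7%) were lower and 3 higher at an unadjusted p under 0.05, against 7.65% and 7.52% of all genes, and the median was -0.25. UTP14A, of the processome that trims the small subunit RNA, was at -1.01 ± 0.19 (edgeR adjusted p = 0.059), and NHP2, of the box H/ACA particles that make pseudouridine, at -1.04 ± 0.22 (edgeR adjusted p = 0.083). The 77 mitochondrial ribosomal protein genes, the same kind of machine in another compartment, had a median of -0.13, with 5 (6.49%) lower and 2 higher at an unadjusted p under 0.05, a share of lower genes near the 7.65% of all genes. Over all genes, DESeq2 called 2.87% lower and 2.4% higher, and limma-voom with sample weights 8.45% and 12.3%. Of the 77 mitochondrial ribosomal protein genes, edgeR with TMM called 0, DESeq2 2 and limma-voom with sample weights 14. The smallest p-values among them belonged to MRPS26 (-1.15 ± 0.26, edgeR adjusted p = 0.101) and MRPL52 (-1.15, edgeR adjusted p = 0.121).

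Of 33 regulators of growth and of TOP messages, 0 passed and 2 (6.06%) were lower at an unadjusted p under 0.05, no more than the 7.65% of all genes, with a median of -0.08. The smallest p-values belonged to the kinase RPS6KA1 (-0.63, edgeR adjusted p = 0.193) and the MYC antagonist MXD4 (-0.47, edgeR adjusted p = 0.290). The 19 genes of ribosome stress and quality control had a median of 0.22, with 3 higher at an unadjusted p under 0.05, where 7.52% of all genes were higher, and 0 called in edgeR with TMM. HBS1L (0.54) and LTN1 (0.60), which rescue stalled ribosomes and mark their unfinished chains for destruction, had the smallest p-values (edgeR adjusted p = 0.246 and 0.248). Under library size alone the medians of TOP messages, biogenesis genes and mitochondrial ribosomal proteins turned to 0.31, 0.40 and 0.55, beside 0.65 for all genes.

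**Figure D5:**
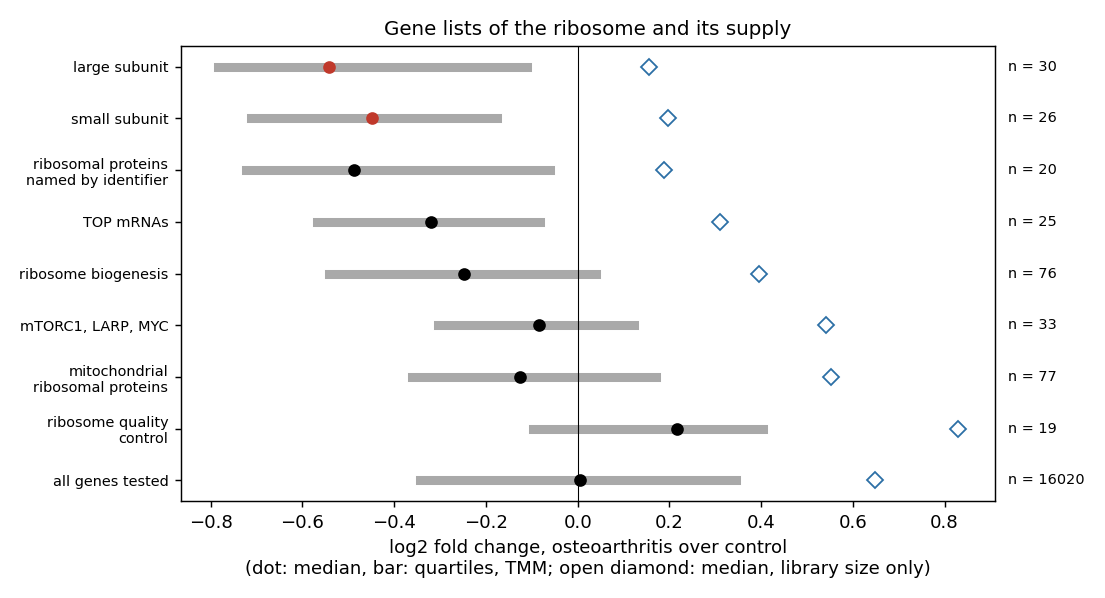
Log2 fold changes, osteoarthritis over control on the TMM scale, of the ribosomal protein genes beside the lists of genes that work with the ribosome; dots are medians and bars quartiles over the genes, and open diamonds are medians with library size scaled alone. Large and small subunit genes have medians of -0.54 and -0.45, TOP messages -0.32, biogenesis genes -0.25 and mitochondrial ribosomal proteins -0.13, all of which turn positive (0.16, 0.20, 0.31, 0.40 and 0.55) when only library size is scaled.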

How the data were processed

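RNA-seq of 4 osteoarthritis and 4 control samples was analysed, grouped by sample title. The authors' deposited table gives estimated counts, TPM, log2 TPM and effective lengths for 18898 genes. The build was Sscrofa11.1, per the submitters' processing notes, which list Salmon 1.1.0, STAR 2.7.9a, Trim Galore 0.6.7, MultiQC 1.13, DESeq2 1.26.0 and StringTie 2.1.0 with no roles. The deposited estimated counts are whole numbers and were rounded as a safeguard. The deposited TPM values were used for levels per length, and the deposited log2 values were not used. Effective lengths entered as an alternative offset. Names came from the file for 12365 genes and from reference tables for a further 564 by gene identifier and 593 by Entrez identifier. Coordinates are those of RefSeq on Sscrofa11.1, available for 55 of the 57 members.

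edgeR 4.0.16 in R 4.3.3 filtered genes (filterByExpr), scaled libraries (TMM) and tested the group with a robust quasi-likelihood fit. The Benjamini-Hochberg adjustment covered 16020 genes, with a threshold of 0.05, and the test was checked on simulated data. Apart from the genes changed on purpose, the simulated libraries shared the same mean levels. The check therefore could not probe how scaling handles the differing content of the real libraries. Values are log2 fold changes ± SE, the SE being the size of the fold change over the root of F. Members, lists and tests were chosen with earlier results of these data known. The text names called members, the 4 tested members of each subunit with the smallest p in each direction, the 3 highest and 3 lowest by TPM, paralogs and stalk genes, and the 2 smallest p of each other list. Others were chosen after their values were seen. Results of 2 genes that this rule names are not reported here. Alternatives were other scalings, filters, an offset for effective length, DESeq2 1.42.0, limma-voom (3.58.1), a replicate block, 1 surrogate variable (sva 3.50.0), removed gene classes and each library left out.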

Additional observations from a re-analysis of the deposited data

Results flagged for a closer look

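A sample of a group stood far from the other 3 in 7 of 88 groups examined, by the share of the group's whole range that lies between the outermost sample and its nearest neighbour (above Dixon's critical value for 4 samples), where chance alone flags about 1 group in 20. RPL37 in osteoarthritis had a gap of 0.885, with 42.8, 28.5, 41.2 and 41.6 CPM in osteoarthritis libraries 1 to 4. RPL26L1 in osteoarthritis had a gap of 0.886, osteoarthritis 3 being low at 3.02 CPM beside 5.08 to 5.34 CPM. In RPL10 the gap was 0.928 in the control group, where control 2 had 485 CPM beside 441 to 444 CPM. Control 4 was the low library in RPL18 (0.89; 79.4 CPM beside 96.3 to 98.4 CPM), in RPS6 (0.912; 182 CPM beside 247 to 253 CPM) and in LTN1 (0.83; 17.5 CPM beside 23.8 to 25.1 CPM). RPL3L in control had a gap of 0.844, from 0 to 1.47 CPM, at counts too low to read.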

How the results depend on the processing

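The number of genes called over the whole table was 99, against 214 with library size only, 844 with DESeq2, 3329 with limma-voom and sample weights, 918 with 1 surrogate variable, 31 with controls 1 and 3 summed, 152 when scaled to the members' sum and 285 at an adjusted p under 0.10. Called large subunit genes, 1 in the main test, were 2 with RLE, upper quartile or protein-coding scaling, the stricter filter, limma-voom, and with mitochondrial, rRNA and haemoglobin genes removed. They were 0 with library size only, with controls 1 and 3 summed or left out, 12 with DESeq2, 16 with sample weights, 6 with 1 surrogate variable and 3 at 0.10. Called small subunit genes, 5 in the main test, were 0 with library size only and with controls 1 and 3 summed or left out, 9 with DESeq2, 10 with sample weights and 2 when scaled to the members' sum. Calls of mitochondrial ribosomal proteins, 0 in the main test, were 2 with DESeq2, 14 with sample weights and 1 with 1 surrogate variable. In the 5 partner lists the number called, 0 in the main test, was 14 with DESeq2, 37 with sample weights, 9 with 1 surrogate variable and 3 at 0.10. Median log2 fold changes moved to 0.16 (large), 0.20 (small) and 0.55 (mitochondrial) with library size only, and to -0.13, -0.11 and 0.28 when scaled to the members' sum. With controls 1 and 3 left out the mitochondrial median was -0.00073. The share of counts had an osteoarthritis to control ratio of 0.938 within protein-coding counts, and the subunit ratio was 0.830 from medians. The cause of these changes was not tested. Leaving out each library in turn gave 14 to 152 genes called, 0 to 2 large and 0 to 3 small subunit genes, 0 to 4 partner genes, medians of -0.62 to -0.47 (large), -0.55 to -0.41 (small) and -0.16 to -0.06 (mitochondrial), share ratios of 1.08 to 1.32 and subunit ratios of 1.00 to 1.03. Replicate numbers did not pair the samples (correlations of deviations -0.015, -0.11, -0.38 and -0.23), and with them as a block 1 gene was called, 0 of them members in either subunit. Leaving out controls 1 and 3 together and scaling to the members' sum were chosen after seeing the data.

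Named genes that were not called changed sign under some settings. With library size only these were RPL23A (0.53), RPL26L1 (0.32), RPL36AL (0.50), RPL7L1 (0.49), RPLP0 (0.51), RPS2 (0.36), RPS4X (0.45), RPS6 (0.21), RPS7 (0.081), RPSA (0.62), RACK1 (0.60), RPS6KA1 (0.021) and MXD4 (0.15). Scaled to the members' sum they were RPL23A (0.20), RPL26L1 (0.054), RPL36AL (0.22), RPL7L1 (0.16), RPLP0 (0.19), RPS2 (0.078), RPS4X (0.15), RPSA (0.30) and RACK1 (0.31). With controls 1 and 3 left out they were RPL36AL (0.0023), RPSA (0.11) and RACK1 (0.059). RPS27L was -0.0013 with upper quartile scaling and -0.084 with the length offset. RPSA was 0.19 with the length offset, 0.0011 with 1 surrogate variable and 0.012 with controls 1 and 3 summed. With single libraries left out, the ranges that crossed 0 were -0.043 to 0.20 for RPL10, -0.27 to 0.067 for RPL23A, -0.27 to 0.070 for RPLP0, -0.078 to 0.13 for RPS27L, -0.080 to 0.15 for RPS3A, -0.18 to 0.14 for RPSA and -0.10 to 0.062 for RACK1.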
